A study of Mus musculus with 12 samples.

Results

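Fibro-adipogenic progenitors (FAPs) were followed through 9 marker genes, Pdgfra, Ly6a, Cd34, Osr1, Pi16, Dpt, Clec3b, Mfap5 and Tcf7l2. They were picked by gene name from the 37748 genes of the count table, and all 9 passed the filter on low counts that left 16679 genes for testing. The data are RNA-seq libraries of whole gastrocnemius muscle from 12 mice, 1 library per mouse and 3 mice in each of 4 groups, in a study of facioscapulohumeral muscular dystrophy (FSHD) models. The disease follows from misexpression of the transcription factor DUX4, and the groups were made to differ in how much human DUX4-fl is produced in skeletal muscle.

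Control mice were ACTA1-MCM/+ and carried MerCreMer, a Cre recombinase that enters the nucleus after tamoxifen (TMX) and is made in skeletal muscle from the ACTA1 promoter. FLExD/+ mice had the DUX4-fl transgene alone, a conditional insertion at Rosa26 that is designed to be turned on by Cre. The paper describes low, leaky DUX4-fl expression in FLExD/+ mice, though no DUX4-FL protein was detected in their skeletal muscle. By qRT-PCR it found no significant difference in DUX4-fl mRNA between FLExD/+ and the bi-transgenic models. Both the control and the FLExD/+ mice are labelled as having received no TMX. Both transgenes were present in mice of the other groups, the moderate and the severe model. Mice of the moderate model were injected with TMX once at 5 mg/kg, and mice of the severe model at 10 mg/kg on each of 2 days in a row. All mice were 13 weeks old, and the muscles of the moderate and severe models were taken 9 days after TMX. Since the ACTA1 promoter directs Cre to muscle fibers, the progenitors themselves are not the cells in which the transgene is designed to recombine. Because the untreated groups lack TMX, effects of the drug and of the transgene cannot be told apart here. The submitters' short description calls the FLExD/+ libraries mild pathology, but their strain label holds the DUX4 transgene alone, and they are called FLExD/+ throughout. Libraries of the mild bi-transgenic model were not analysed here.

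FAPs are mesenchymal cells that lie between the fibers of skeletal muscle and are recognised by the PDGF receptor alpha and, in mice, by the surface protein Sca-1. After injury they multiply, signal to muscle stem cells and to macrophages, and lay down matrix, and in chronic disease they can turn into adipocytes or matrix-producing fibroblasts. None of the 9 genes is made by FAPs alone. Endothelial cells also make Cd34 and Ly6a, and tendon cells also make connective tissue genes such as Mfap5 and Clec3b.

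In the severe model the markers moved apart. Mfap5 rose 5.33-fold, and Pdgfra and Tcf7l2 rose, while Cd34, Pi16 and Clec3b fell after TMM scaling between libraries. The Tcf7l2 rise is one of counts, which are not corrected for its length, and that length differed between groups. In the moderate model Pdgfra, Ly6a and Mfap5 rose and no member fell. Between FLExD/+ and control muscle no member was called. A gene was called when its adjusted p (edgeR, over all 16679 genes) was under 0.05 and its log2 fold change reached 0.5 in either direction. Of all tested genes 32.9% were called higher and 27.9% lower in the severe comparison, and 24.4% and 17.0% in the moderate comparison. The numbers of members called are of that order, so a split in direction is not particular to these markers.

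All levels below are in CPM, counts scaled by library sizes that were multiplied by TMM factors, unless TPM is named. These factors were 0.706 to 0.724 in controls, 0.708 to 0.760 in FLExD/+, 1.06 to 1.13 in moderate and 1.69 to 1.87 in severe muscle, on total counts of 23796902 to 29136403. The summed level of 7 adult fast myofiber genes, among them Acta1, Ckm and Myh4, was 144060 to 194035 CPM in controls. In the severe model it was 9866 to 17690 CPM. These values contain the TMM factors and are not shares of a library. With library size alone all 7 genes fell in the severe model, with a median log2 fold change of -2.24 (-3.53 with TMM factors). Muscle genes thus took a smaller part of the severe libraries. Without such factors, a gene of average behaviour appears to rise. Over the 16679 tested genes, the median log2 difference from control was 0.04 (moderate) and 0.08 (severe) with TMM factors, and 0.65 and 1.39 with library size alone. The fall of Cd34, Pi16 and Clec3b in the severe model is therefore a fall relative to the other genes, and with library size alone their log2 fold changes were 0.69, 0.70 and 0.38. These are bulk libraries, in which fewer cells of a type and less RNA per cell cannot be told apart. Each library is a separate mouse, and 0.1 is the smallest two-sided p that exact permutation allows for 3 mice in each group.

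The members lie on 8 chromosomes of GRCm38, to which the mm10 coordinates of the study correspond. Pdgfra (ENSMUSG00000029231), the receptor tyrosine kinase for PDGF, is on chromosome 5 from 75152292 to 75198215, and Ly6a (ENSMUSG00000075602), which encodes Sca-1, is on chromosome 15 from 74994877 to 74998031. Cd34 (ENSMUSG00000016494), a sialomucin of progenitor and endothelial surfaces, is on chromosome 1 from 194938819 to 194961279, and Dpt (ENSMUSG00000026574), the matrix protein dermatopontin, is on the same chromosome from 164796644 to 164824266. Pi16 (ENSMUSG00000024011), a cell surface peptidase inhibitor typical of universal fibroblasts, is on chromosome 17 from 29317680 to 29330593. Clec3b (ENSMUSG00000025784), the secreted plasminogen-binding protein tetranectin, is on chromosome 9 from 123150946 to 123157432. Mfap5 (ENSMUSG00000030116), a glycoprotein of fibrillin microfibrils, is on chromosome 6 from 122505845 to 122529290. Osr1 (ENSMUSG00000048387), a zinc finger transcription factor of embryonic FAP precursors, is on chromosome 12 from 9570116 to 9581500. Tcf7l2 (ENSMUSG00000024985), a transcription factor at the end of Wnt signaling also known as Tcf4, is on chromosome 19 from 55741820 to 55933654.

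The reads were 50 bases long, and the library protocol names no step that keeps the strand. Of the distinct 50-base words in the annotated transcripts of Ly6a, 19.0% also occur in transcripts of other genes, most of them in its neighbour in the family, Ly6c1, so the Ly6a count depends in part on how RSEM divided shared reads. The share was 4.93% for Pdgfra, 3.88% for Pi16 and 2.14% for Cd34, mainly with genes annotated on the opposite strand at the same place, and 0.596% for Osr1. For Dpt, Clec3b, Mfap5 and Tcf7l2 it was 0. Reads of Pdgfra, Pi16 and Cd34 cannot be told apart from those of their antisense partners without strand.

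RefSeq promoter windows of 300 bases (250 before and 50 after the start site, GRCm38.p6) were found for 5 of the 9 members. Ly6a, Osr1, Clec3b and Mfap5 had no entry. The windows of Pdgfra and Tcf7l2, which rose in the severe model, and of Cd34 and Pi16, which fell there after TMM scaling, are shown so that members with opposite changes can be read side by side. Tcf7l2 has 2 windows, for an upstream and a downstream start site. All lie on the plus strand, and capitals mark matches on either strand to the 7 motifs searched, which were the TATA box (TATAAA), the CCAAT box, the GC box (GGGCGG), the AP-1 site (TGANTCA), the TEAD site (CATTCC), the TCF/LEF site (CTTTGAT) and a form of the DUX4 site.
Pdgfra, chr5:75152001-75152300: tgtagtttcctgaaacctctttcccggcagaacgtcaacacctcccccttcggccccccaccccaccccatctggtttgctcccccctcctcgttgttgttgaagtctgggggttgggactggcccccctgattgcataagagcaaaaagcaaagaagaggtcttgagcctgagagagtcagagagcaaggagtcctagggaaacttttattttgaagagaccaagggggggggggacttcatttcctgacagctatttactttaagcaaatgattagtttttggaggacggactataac
Tcf7l2 upstream, chr19:55741560-55741859: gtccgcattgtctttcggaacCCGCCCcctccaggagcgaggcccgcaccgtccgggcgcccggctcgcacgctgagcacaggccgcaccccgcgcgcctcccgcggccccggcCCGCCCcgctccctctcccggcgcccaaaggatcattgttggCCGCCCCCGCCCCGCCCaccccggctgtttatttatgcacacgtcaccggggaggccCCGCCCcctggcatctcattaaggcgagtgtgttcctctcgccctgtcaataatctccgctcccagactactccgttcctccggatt
Tcf7l2 downstream, chr19:55895071-55895370: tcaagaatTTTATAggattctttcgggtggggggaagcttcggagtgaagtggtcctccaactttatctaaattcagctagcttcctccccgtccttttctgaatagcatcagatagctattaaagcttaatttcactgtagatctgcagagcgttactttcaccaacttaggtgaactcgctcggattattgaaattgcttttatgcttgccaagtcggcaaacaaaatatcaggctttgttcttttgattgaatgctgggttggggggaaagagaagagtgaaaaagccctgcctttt
Cd34, chr1:194938571-194938870: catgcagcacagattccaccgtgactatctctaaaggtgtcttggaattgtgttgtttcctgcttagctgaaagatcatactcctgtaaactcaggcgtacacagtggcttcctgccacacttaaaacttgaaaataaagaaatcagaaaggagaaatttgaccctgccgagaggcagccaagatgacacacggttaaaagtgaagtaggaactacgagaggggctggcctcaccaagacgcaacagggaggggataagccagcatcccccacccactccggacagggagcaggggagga
Pi16, chr17:29318632-29318931: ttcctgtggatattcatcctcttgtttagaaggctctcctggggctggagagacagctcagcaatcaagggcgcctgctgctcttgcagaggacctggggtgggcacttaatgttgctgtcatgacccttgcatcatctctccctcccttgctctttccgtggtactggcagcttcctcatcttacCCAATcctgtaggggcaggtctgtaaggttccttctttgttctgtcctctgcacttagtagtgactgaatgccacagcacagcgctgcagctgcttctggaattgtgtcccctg

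The upstream Tcf7l2 window was 70.0% G and C and held the GC box GGGCGG 6 times on the opposite strand, where the matches at window bases 163 and 168 share a base. The other windows shown were 42.0% to 53.3% G and C, against a median of 52.7% over 32851 windows, and 35.7% of these windows held a GC box. The Pi16 window held 1 CCAAT box (in 37.4% of all windows), and the downstream Tcf7l2 window held 1 TATA box on the opposite strand (in 13.6%). The Pdgfra and Cd34 windows held none of the 7 motifs. The AP-1 site was in 7.81% of all windows, the TEAD site in 14.7%, the TCF/LEF site, to which Tcf7l2 binds, in 3.73%, and the DUX4 site in 0.0335%. A match is a run of letters and not evidence of binding, and a window without a match says nothing about a factor.

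Mfap5, whose protein decorates the microfibrils on which elastic fibers form, had the largest change of the 9 against control in both models. Its level was 8.70, 14.9 and 12.99 CPM in the 3 control mice, 13.2, 17.1 and 12.3 CPM in FLExD/+, 38.8, 39.8 and 38.0 CPM in the moderate model and 65.1, 65.1 and 65.2 CPM in the severe model. The 4 groups formed 3 levels without overlap, with control and FLExD/+ at the bottom. The log2 fold change was 1.67 (SE 0.16, adjusted p = 1.09e-06) in moderate and 2.41 (SE 0.16, adjusted p = 1.06e-08) in severe muscle against control, and 0.74 (SE 0.15, adjusted p = 0.000842) between the models. Mfap5 was called in these 3 comparisons under each scaling, filter and left-out mouse tried, other than a log2 fold threshold of 1 for severe against moderate.

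Pdgfra, the receptor that defines the population, rose in both models. It was at 55.6, 49.4 and 69.1 CPM in controls, at 57.9, 57.6 and 59.9 CPM in FLExD/+, at 86.9, 76.0 and 87.4 CPM in moderate and at 90.2, 92.6 and 96.6 CPM in severe muscle. All 6 mice given TMX were above all 6 untreated mice. The log2 fold change against control was 0.52 (SE 0.11, adjusted p = 0.000969) in moderate and 0.68 (SE 0.11, adjusted p = 5.62e-05) in severe muscle. The moderate value lies near the fold threshold, and it was 0.46 without control mouse 1127, 0.39 without control mouse 1246, 0.49 without moderate mouse 1236 and 0.46 without moderate mouse 1331, each under 0.5. Between the models the log2 difference was 0.16 (SE 0.11, adjusted p = 0.234), although the groups did not overlap.

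Tcf7l2, a transcription factor of connective tissue fibroblasts in muscle, had low levels. It was at 3.57, 2.79 and 3.51 CPM in controls, 2.21, 2.38 and 2.70 CPM in FLExD/+, 4.01, 4.45 and 4.18 CPM in moderate and 6.94, 5.66 and 4.61 CPM in severe muscle. The groups were in the order FLExD/+, control, moderate, severe, with no overlap between neighbours. Against control, the log2 fold change was 0.80 (SE 0.17, adjusted p = 0.000638) in the severe model and 0.35 (SE 0.17, adjusted p = 0.0988) in the moderate model. Between the models it was 0.45 (SE 0.16, adjusted p = 0.0304), under the fold threshold. It was called without severe mouse 1079 (0.58) and with at least 10 counts asked of every sample (0.51).

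The length implied by the 2 deposited values of Tcf7l2 also differed between groups, which bears on both its TPM and its CPM. The ratio of count to TPM, divided by the median ratio of all genes in the library, gives a relative effective length. It was 0.769 ± 0.0321 (SD, n = 3) in control, 0.637 ± 0.0297 in FLExD/+, 0.961 ± 0.00967 in moderate and 1.23 ± 0.0893 in severe muscle, and the 4 groups did not overlap. For Pdgfra the same ratio was 2.70 ± 0.0327 in control and 2.66 ± 0.0416 in severe muscle. A longer relative length means that the same count gives a lower TPM. It also means that the same number of transcripts gives a higher count, and CPM is not corrected for length. How much of the CPM rise of Tcf7l2 goes with its length was not tested.

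**Figure D1:**
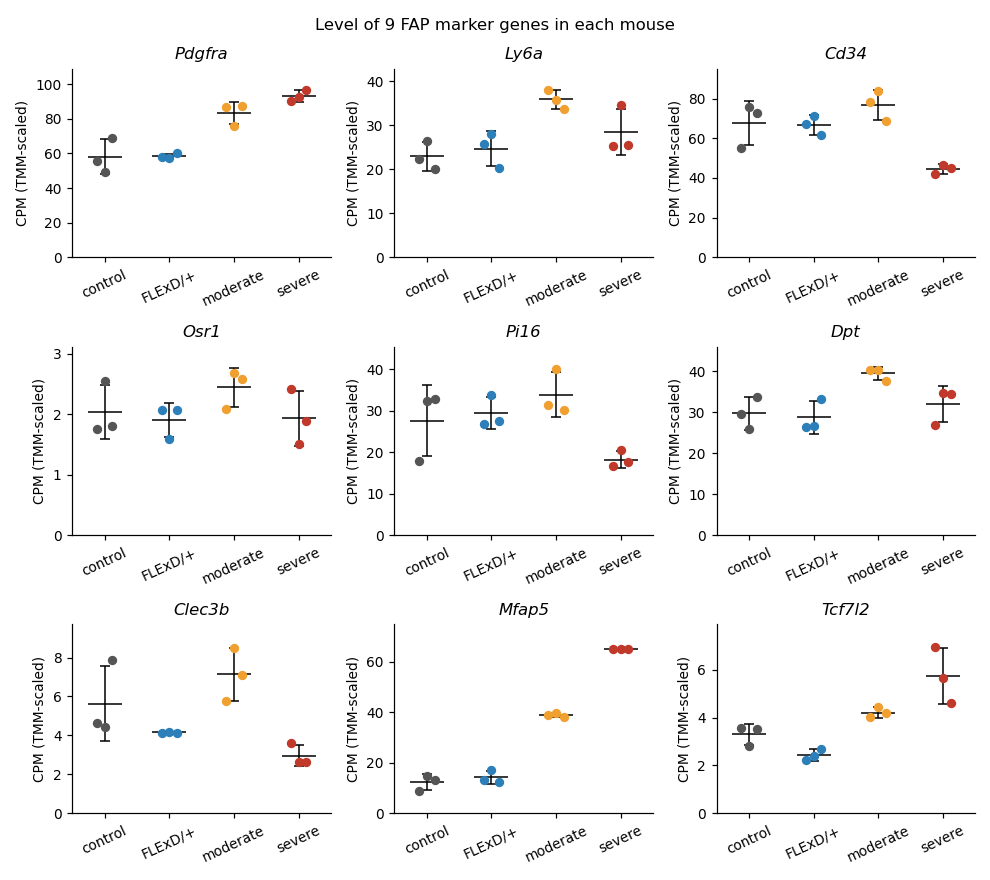
Each panel plots 1 member gene, with the level in CPM (library sizes with TMM factors) on a linear axis from 0 and the 4 groups along the bottom. Points are mice, long dashes are group means and error bars are SD (n = 3). Pdgfra, Mfap5 and Tcf7l2 are highest in the severe model, whereas with this scaling Cd34, Pi16 and Clec3b have their lowest means there and their highest in the moderate model. With library size alone the severe levels of these 3 genes are above control.

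Cd34 fell in the severe model. It was at 54.8, 75.5 and 72.5 CPM in controls, 67.3, 71.3 and 61.6 CPM in FLExD/+, 78.1, 83.7 and 68.9 CPM in moderate and 41.9, 46.4 and 45.0 CPM in severe muscle. Every severe mouse was below every other mouse, and the moderate mice overlapped with controls. The log2 fold change was -0.61 (SE 0.12, adjusted p = 0.000324) for severe against control with TMM factors and 0.69 with library size alone. For severe against moderate it was -0.79 (SE 0.12, adjusted p = 8.53e-05) with TMM factors and -0.10 (adjusted p = 0.474) with library size alone. For moderate against control it was 0.18 (SE 0.12, adjusted p = 0.2). When only genes with at least 10 counts in every sample entered the fit, the severe change against control was -0.49, just under the fold threshold.

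Pi16, a marker of fibroblasts of the adventitia and perimysium, varied more among controls. It was at 17.8, 32.3 and 32.8 CPM in controls, with mouse 1127 the low one, at 26.8, 33.8 and 27.5 CPM in FLExD/+, at 31.5, 40.1 and 30.1 CPM in moderate and at 16.6, 20.4 and 17.6 CPM in severe muscle. Severe mice overlapped with control mouse 1127 but lay below the FLExD/+ and moderate mice. The log2 fold change of severe against control was -0.60 (SE 0.20, adjusted p = 0.0175) with TMM factors and 0.70 with library size alone. This call did not hold without control mouse 1246 (-0.49, adjusted p = 0.0663), control mouse 1349 (-0.48, adjusted p = 0.0668), severe mouse 1047 (-0.54, adjusted p = 0.0828) or severe mouse 1079 (-0.58, adjusted p = 0.0541), nor without the filter on low counts (-0.51, adjusted p = 0.0921) or with at least 10 counts asked of every sample (-0.49, adjusted p = 0.0438). Severe against moderate gave -0.90 (SE 0.20, adjusted p = 0.00269) with TMM factors and -0.20 with library size alone, and its call held without each mouse in turn.

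Clec3b, which encodes tetranectin, fell in severe muscle against control after TMM scaling, but its change was not called against FLExD/+. It was at 4.61, 4.43 and 7.87 CPM in controls, with mouse 1349 the high one, at 4.13, 4.16 and 4.15 CPM in FLExD/+, at 5.77, 8.52 and 7.11 CPM in moderate and at 3.61, 2.64 and 2.63 CPM in severe muscle. The severe mice lay below all others. The log2 fold change of severe against control was -0.93 (SE 0.22, adjusted p = 0.00169) with TMM factors and 0.38 with library size alone, and that of severe against moderate was -1.26 (SE 0.21, adjusted p = 0.000247) with TMM factors and -0.56 with library size alone. Moderate against control gave 0.34 (SE 0.21, adjusted p = 0.203), and without control mouse 1349 it was 0.62 (adjusted p = 0.0158) and was called. Against FLExD/+ in place of control the severe difference was -0.48 (SE 0.23, adjusted p = 0.0679), a smaller value than those of Pi16 and Cd34 against FLExD/+.

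Ly6a rose in the moderate model, where its level was 38.1, 35.9 and 33.8 CPM, against 22.3, 26.4 and 20.1 CPM in controls and 25.7, 28.0 and 20.3 CPM in FLExD/+. In the severe model it was at 25.2, 34.6 and 25.6 CPM and overlapped with the controls, mouse 1066 being the high one. The log2 fold change was 0.65 (SE 0.14, adjusted p = 0.00186) in moderate and 0.31 (SE 0.14, adjusted p = 0.0676) in severe muscle. Dpt, which binds decorin and collagen, was at 25.8 to 33.8 CPM in controls and 37.8 to 40.4 CPM in the moderate model, a log2 difference of 0.41 (SE 0.12, adjusted p = 0.0123) that lies under the fold threshold. In the severe model Dpt was at 27.0 to 34.8 CPM, which overlapped with the controls. Osr1 was the lowest member, with 32.1 to 107 counts per library, and its levels of 1.51 to 2.69 CPM overlapped between control and each other group. Its log2 fold change was 0.26 (SE 0.23, adjusted p = 0.353) in moderate and -0.08 (SE 0.23, adjusted p = 0.779) in severe muscle.

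Counted over the members, 3 of 9 passed as higher and 0 as lower against control in moderate muscle, where 24.4% of all tested genes were called higher and 17.0% lower. At an unadjusted p under 0.05, 4 members were higher and 0 lower there, and DESeq2 also called 0 lower. In severe muscle 3 passed as higher and 3 as lower, beside 32.9% and 27.9% of all genes. Between severe and moderate 1 was called higher and 3 lower, beside 17.6% and 18.8% of all genes. The groups did not overlap at 5 members in the moderate comparison (61.0% of all genes), at 5 in the severe comparison (75.0%) and at 7 between the models (61.3%). These shares are of the order of the background, so that the number of members called is not in itself a result. The median log2 fold change of the members was 0.35 in moderate and 0.11 in the severe comparison, with 0.04 and 0.08 over all genes. The moderate and severe comparisons share the control mice.

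**Figure D2:**
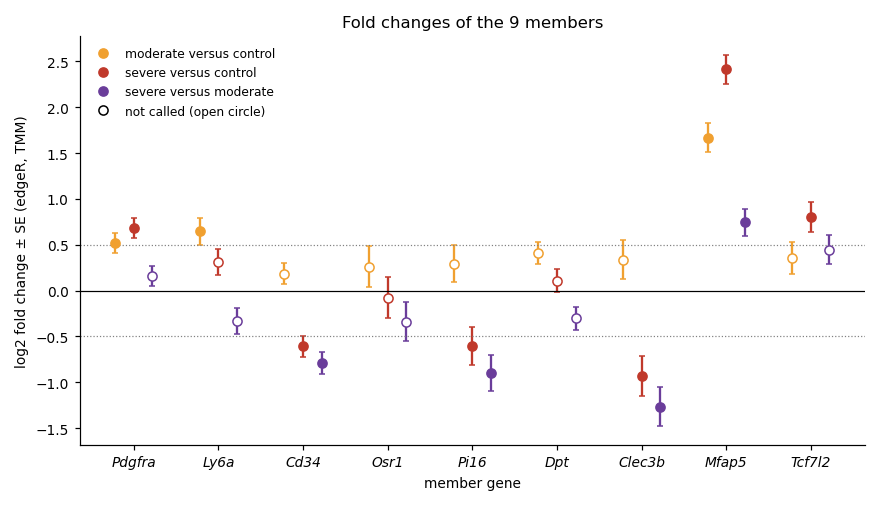
The vertical axis gives the log2 fold change (edgeR, TMM factors) and the horizontal axis the 9 members, for both models against control and for severe against moderate. Error bars are SE, filled circles are called, open circles are not, and dotted lines mark the fold threshold of 0.5. Mfap5 reaches 2.41 and Clec3b -0.93 in the severe model, whereas the 9 moderate values lie between 0.18 and 1.67. The negative severe values of Cd34, Osr1, Pi16 and Clec3b are positive with library size alone.

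Between FLExD/+ and control, 0 members were called in either direction with edgeR or DESeq2, where 0% of all tested genes were called higher and 0.00600% lower. The 9 log2 differences ran from -0.45 for Clec3b to 0.22 for Mfap5. At an unadjusted p under 0.05, 0 members were higher and 1 lower, Tcf7l2 (-0.44, SE 0.19, adjusted p = 1). Tcf7l2 and Clec3b did not overlap between these groups, as was the case for 8.60% of all tested genes. With FLExD/+ as the reference, Pdgfra rose by 0.67 (SE 0.11), Mfap5 by 2.20 (SE 0.16) and Tcf7l2 by 1.24 (SE 0.17) on the log2 scale in the severe model, and Cd34 (-0.59, SE 0.12) and Pi16 (-0.69, SE 0.20) fell after TMM scaling. In the moderate model, Clec3b (0.78, SE 0.22, adjusted p = 0.00789) and Tcf7l2 (0.79, SE 0.18, adjusted p = 0.00186) were called against FLExD/+ in addition to Pdgfra, Ly6a and Mfap5.

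The ratio of 2 genes within a library does not depend on the scaling between libraries, so each member was also expressed relative to Pdgfra. In control muscle the Cd34 count was 119% ± 29.6 (SD, n = 3) of the Pdgfra count, in FLExD/+ 114% ± 10.7, in the moderate model 92.9% ± 15.9 and in the severe model 47.7% ± 2.12. The Pi16 count went from 48.3% ± 16.7 of Pdgfra in control to 41.2% ± 10.2 in moderate and 19.6% ± 2.18 in severe muscle, and the Clec3b count from 9.59% ± 1.63 to 8.68% ± 2.33 and 3.21% ± 0.702. Severe muscle had the lowest mean ratio of the 4 groups for each of these 3 genes. The Mfap5 count went the other way, from 21.6% ± 7.61 of Pdgfra in control to 46.9% ± 4.83 in moderate and 70.0% ± 2.41 in severe muscle.

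Between severe and control, the ratios to Pdgfra of 5 of the 8 other members did not overlap, beside 73.5% of all 16678 other tested genes, so that this number is no result about the members. The log2 difference was -1.59 for Clec3b, -1.29 for Cd34, -1.25 for Pi16, -0.59 for Dpt and 1.76 for Mfap5, each with an exact two-sided permutation p of 0.1, the smallest possible, and 0.229 after Benjamini-Hochberg adjustment over 32 ratio comparisons. When all genes were tested in edgeR with the Pdgfra count as the library scale, adjusted p was 4.43e-07 for Clec3b, 7.36e-08 for Cd34, 7.25e-05 for Pi16, 0.000652 for Dpt and 5.28e-08 for Mfap5. With this scale 72.7% of the other tested genes had an adjusted p under 0.05. Osr1 (-0.78), Ly6a (-0.39) and Tcf7l2 (0.09) overlapped between the groups in this measure. The edgeR adjusted p with this scale was 0.0135 for Osr1, 0.0634 for Ly6a and 0.619 for Tcf7l2. Pdgfra itself rose by 0.68 in severe muscle with TMM factors, which lowers every ratio to it. With TMM factors Dpt (0.11) and Osr1 (-0.08) were not called against control. Cd34 (-0.61), Pi16 (-0.60) and Clec3b (-0.93) fell by less than their ratios. In the moderate model only the Mfap5 ratio did not overlap with control, beside 61.7% of the other genes (log2 difference 1.17, exact permutation p = 0.1), and that of Cd34 was -0.34 (exact permutation p = 0.3). Between severe and moderate muscle 6 of the 8 ratios did not overlap, beside 57.6% of the other genes, with log2 differences of -1.43 for Clec3b, -1.05 for Pi16, -0.95 for Cd34, -0.51 for Ly6a, -0.47 for Dpt and 0.58 for Mfap5. Between FLExD/+ and control the ratios of Clec3b (-0.41) and Tcf7l2 (-0.45) did not overlap, beside 5.29% of the other genes.

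**Figure D3:**
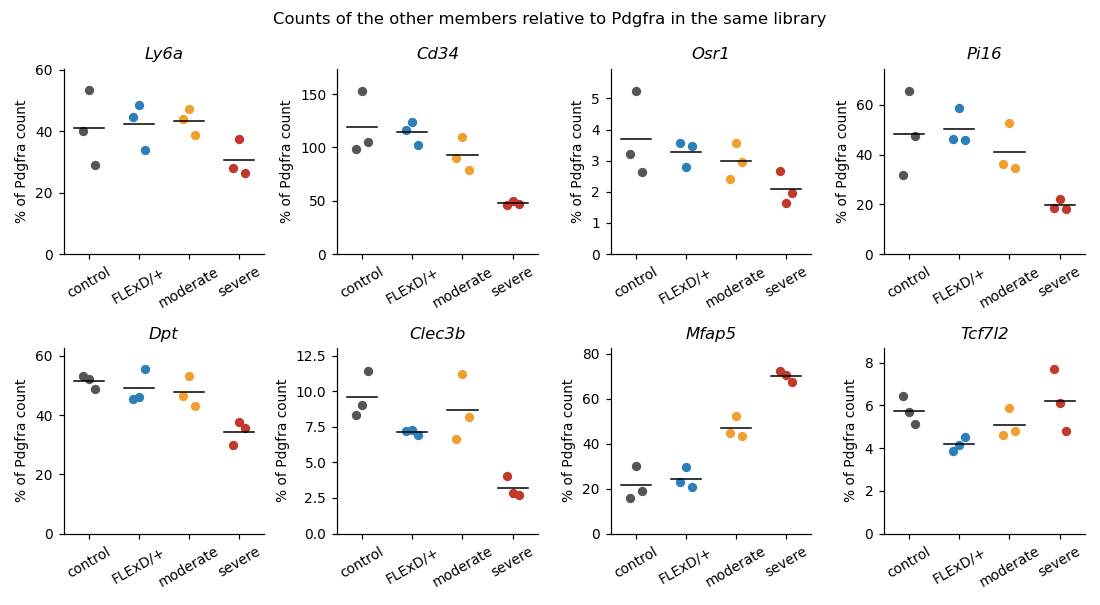
The count of each of 8 members as a percent of the Pdgfra count in the same library (0.5 added to both counts) is on a linear vertical axis from 0, with the 4 groups along the bottom. Points are mice and dashes are means (n = 3). In the severe model the Cd34 points lie at 46.5% to 50.2% against 98.5% to 153% in controls, and the Mfap5 points at 67.4% to 72.2% against 15.7% to 30.2%. These ratios of counts are the same under every library factor, though ratios of TPM can differ from them. All share Pdgfra, which is itself higher in the severe model.

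Setting each member against the median of all tested genes removes a shift that is common to all genes. Library factors shift all genes almost alike, so after this step TMM and library size alone agree by construction. Their agreement is therefore not separate support. Relative to that median, severe minus control was -0.69 for Cd34, -0.69 for Pi16 and -1.01 for Clec3b on the log2 scale with TMM factors, and -0.69, -0.69 and -1.01 with library size alone. From log2(TPM + 1) the values were -0.20 for Cd34, -0.23 for Pi16 and -0.52 for Clec3b, of the same sign and smaller. The added 1 shrinks the changes of genes with low TPM, and the severe median over all genes was 0.79 there. With library size alone it was 1.39, so subtracting the TPM median need not remove the whole shift for genes of higher TPM. For Mfap5 the 3 scalings gave 2.33, 2.33 and 2.59, and for Pdgfra 0.60, 0.60 and 0.98. Tcf7l2 had 0.72, 0.73 and 0.18. The last is from TPM, which was low for this gene (2.07 in control, 5.04 in severe muscle) and is divided by the relative length given above. Counts are not divided by length, so the first 2 values carry the change in length. The cause of the difference between these values was not tested.

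**Figure D4:**
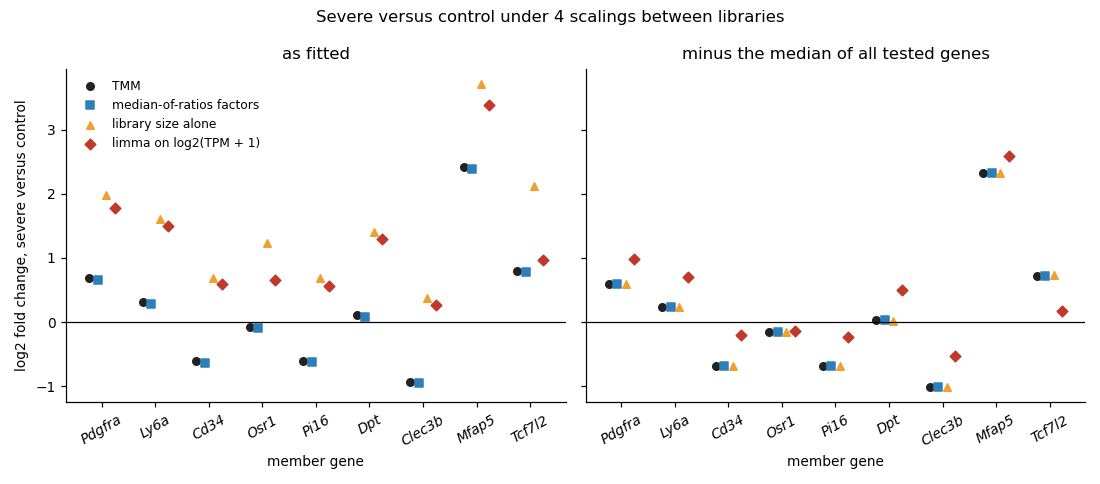
Both panels give the log2 fold change of severe versus control for the 9 members under 4 scalings, on the left as fitted and on the right after subtracting the median of all tested genes. The scalings are TMM, median-of-ratios factors, library size alone and TPM. Library factors shift all genes almost alike, so on the right all but TPM agree by construction. On the left Cd34, Osr1, Pi16 and Clec3b are below 0 with the first pair of scalings and above 0 with library size alone and TPM, and on the right they are below 0 with all 4.

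Levels of different genes were compared per length, in TPM within each group. In controls the order was Dpt at 36.8 ± 5.90 TPM (SD, n = 3), Ly6a at 27.1 ± 3.29, Cd34 at 25.4 ± 4.34, Pi16 at 14.1 ± 4.39, Mfap5 at 13.5 ± 4.04, Pdgfra at 10.4 (8.81 to 12.7), Clec3b at 6.18 ± 2.31, Tcf7l2 at 2.07 ± 0.231 and Osr1 at 1.07 ± 0.234 TPM. Ly6a overlapped with Cd34, and Pi16, Mfap5 and Pdgfra overlapped with each other, as did Pdgfra and Clec3b, while Dpt, Tcf7l2 and Osr1 stood apart from their neighbours. In the severe model Mfap5 came first with 146 ± 11.3 TPM, without overlap, ahead of Dpt at 91.3 ± 12.5 and Ly6a at 79.5 ± 19.6 TPM, which overlapped. Cd34 at 38.5 ± 3.46 TPM and Pdgfra at 37.8 ± 2.12 TPM were level, and Pi16 at 20.8 ± 3.93, Clec3b at 7.50 ± 1.77, Tcf7l2 at 5.04 ± 0.992 and Osr1 at 2.26 ± 0.452 TPM followed without overlap. Mfap5 was thus at place 5 of 9 in controls, at place 3 in the moderate model with 57.0 ± 6.62 TPM, where it overlapped with Ly6a and Dpt, and at place 1 in the severe model.

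Other genes of resting FAPs and fibroblasts were called in both directions. The shares of all tested genes given here apply to the lists below as well. Of 15 such genes, 5 rose and 2 fell in the moderate model, beside 24.4% and 17.0% of all genes. In the severe model 4 rose and 6 fell, beside 32.9% and 27.9%, with a median log2 fold change of -0.32. These counts are of the order of the background. With library size alone 12 rose and 2 fell in the severe model, beside 75.4% and 6.42% of all genes. Those that fell in severe muscle after TMM scaling were Efhd1 (-2.23), Cd55 (-1.88), a complement regulator, Sema3c (-1.19), a secreted semaphorin, Dcn (-0.79), the proteoglycan decorin, Dpp4 (-0.77), a peptidase that marks the same fibroblasts as Pi16, and Hsd11b1 (-0.54). Cd55 was at 65.4 to 76.8 CPM in controls, 44.7 to 51.0 CPM in moderate and 15.0 to 22.6 CPM in severe muscle, without overlap. Those that rose were Fbn1 (1.95), the fibrillin of the microfibrils that carry Mfap5, Podn (1.51), Lum (0.98) and Cxcl14.

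Genes of activated FAPs and myofibroblasts rose. Of 10 such genes, 9 were called higher in the moderate model and 9 in the severe model, beside 24.4% and 32.9% of all tested genes. The medians were 2.44 and 3.86 on the log2 scale, and 0 fell, also at an unadjusted p under 0.05 and with DESeq2. The list was chosen with earlier results of these data known, so these counts are no independent support. Which cells made these transcripts cannot be told from bulk libraries. Timp1, an inhibitor of matrix metalloproteinases, rose by 6.14 (adjusted p = 1.88e-09) and Postn, the matricellular protein periostin, by 5.92 (adjusted p = 5.79e-07) in the severe model. Postn was at 5.60 to 20.9 CPM in controls and 600.1 to 928 CPM in severe muscle. Fap, a surface peptidase, changed least of those called, by 1.30. Col1a1 (1.75, adjusted p = 0.0634) was not called, and its control mice ranged from 54.6 to 549 CPM.

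Among the ligands of the PDGF receptors, Pdgfc, which binds the alpha receptor, rose by 2.17 (adjusted p = 1.54e-06) in severe and 1.00 (adjusted p = 0.00404) in moderate muscle. Control mice had 1.14 to 2.04 CPM, moderate mice 2.41 to 3.98 CPM and severe mice 6.26 to 7.28 CPM. Pdgfa (-0.76, adjusted p = 0.000209) and Pdgfb (-0.77, adjusted p = 8.05e-05) fell in severe muscle after TMM scaling, whereas with library size alone all 5 genes of the list rose. Pdgfd (-0.00, adjusted p = 0.989) and the beta receptor Pdgfrb (0.46, adjusted p = 0.00612) did not pass both thresholds. Over these 5 genes the severe median was -0.00.

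Of 7 paralogs and partners of the members, Tcf7 (2.56), a relative of Tcf7l2, and Mfap2 (1.94), the other microfibril glycoprotein, rose in severe muscle. Axin2 (-1.88, adjusted p = 7.18e-07), a target gene of Wnt signaling, fell. With library size alone 6 of the 7 rose and 1 fell. Osr2, Tcf7l1, Lef1 and Ctnnb1 were not called, with values from 0.07 to 0.77, and the median was 0.54.

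Of 9 secreted factors known from FAPs, 6 rose and 3 fell in severe muscle after TMM scaling (median 1.39), and with library size alone 6 rose and 0 fell. Wisp1 (3.94), Mmp14 (2.49), Il33 (1.92), a cytokine for regulatory T cells, Igf1 (1.39) and Fst (0.60), the activin antagonist follistatin, rose, as did Il6, and Bmp5 (-1.14), Bmp4 (-1.04) and the chemokine Cxcl12 (-0.88) fell. The same 6 rose in the moderate model. Il6 had 0 counts in all 3 control mice, 2, 0 and 2 in FLExD/+, 12, 9 and 1 in the moderate and 15, 11 and 11 in the severe model. Pooled over mice and against a floor of 3 counts over the control group, Il6 was at least 4.91-fold higher in moderate muscle. In severe muscle this pooled bound was 5.89-fold, and with Il6 at this bound the severe median of the list was again 1.39. The bound takes no account of spread between mice, and the moderate mouse with 1 count need not reach it. Of 6 adipogenic genes, Cebpa (0.91) rose and 4 fell in severe muscle, from Fabp4 (-0.78) to Plin1 (-2.32), the coat protein of lipid droplets, with a median of -0.99, whereas with library size alone 3 rose and 0 fell.

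**Figure D5:**
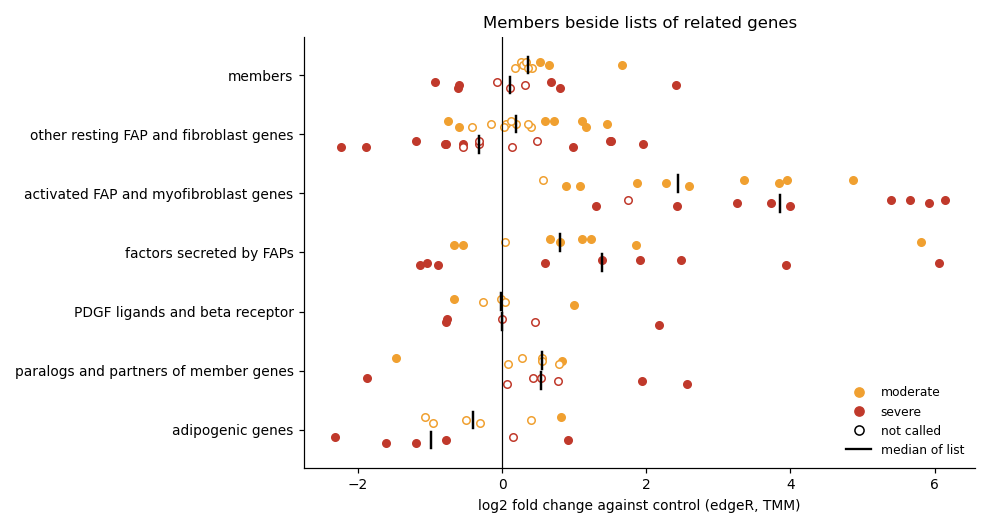
Each row is a gene list and each point a gene, with its log2 fold change against control (edgeR, TMM factors) on the horizontal axis, orange for the moderate and red for the severe model. Filled points are called, open points are not, and black bars are list medians. The lists were chosen with earlier results of these data known. The activated FAP genes lie to the right of 0 in both models, with a severe median of 3.86, while the other resting FAP genes spread on both sides with a severe median of -0.32, which is 0.98 with library size alone.

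Markers of other cell types changed as well, and their part in the member results was not tested. The shares of all genes given with the resting FAP list apply to these lists too. The summed level of 8 endothelial markers, among them Pecam1, Cdh5 and Kdr, ran from 197 to 214 CPM over control mice, from 130 to 172 CPM over moderate mice and from 101 to 115 CPM over severe mice. In severe muscle 7 of the 8 fell after TMM scaling (median -1.02) and only Vwf (-0.06) was not called, whereas with library size alone 3 rose and 1 fell. The log2 level of Cd34 minus the mean of these 8 was 1.46 to 1.87 in controls, 2.31 to 2.46 in moderate and 2.09 to 2.17 in severe muscle, so that Cd34 was lower relative to Pdgfra and higher relative to the endothelial list. For Ly6a the same difference was -0.12 to 0.36 in controls and 1.29 to 1.66 in the severe model.

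Of 6 tenocyte markers, Thbs4 (2.04) and Scx (0.75) rose and Fmod (-1.72), Mkx (-1.49) and Tnmd (-1.16) fell in severe muscle after TMM scaling, and with library size alone 2 rose and 0 fell. Their summed level, which follows the genes of highest level, was 108 to 226 CPM in controls and 358 to 437 CPM in the severe model. The median log2 fold change of these 6 markers in severe muscle was -0.73. The log2 level of Mfap5 minus their mean was -0.52 to 0.34 in controls and 2.50 to 2.71 in severe muscle, and that of Clec3b was -1.39 to -0.77 and -1.91 to -1.64. In FLExD/+ the Clec3b difference was -2.01 to -1.10, which overlapped with the severe mice. Relative to the endothelial list, Clec3b was at -2.20 to -1.46 in controls and -2.01 to -1.34 in severe muscle, which overlapped.

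Leukocyte markers rose in severe muscle at 4 of the 4 tested, among them Cd68 (5.31) and Csf1r (2.79), and summed to 32.2 to 40.6 CPM in controls and 346 to 399 CPM in the severe model. Cd3e and Cd79a were too low to test. Of 6 satellite cell markers 4 rose, Vcam1 (2.91), Pax7 (2.71), Myf5 (2.56) and Sdc4 (0.59), and all 5 cell cycle genes rose. Their severe median of 7.43 rests on few control counts, since Bub1, Ccnb1 and Cdk1 had at most 2 counts in any control mouse. Mki67 (6.71) and Top2a (6.85) had 11 or more counts in every control mouse. After TMM scaling, 4 of 5 pericyte and smooth muscle genes fell (median -1.99) and 1, Cspg4 (0.72), rose, 3 of 4 Schwann cell genes fell (median -1.81), and all 3 erythroid genes (median -3.02) and all 7 fast myofiber genes (median -3.53) fell. With library size alone 3 pericyte, 1 Schwann cell, 3 erythroid and 7 fast myofiber genes fell.

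The genes whose levels were most like each member over the 12 mice were found by Pearson's r of log2 CPM among 13324 other genes with a mean of at least 1 CPM, as a description. All r are over mice of 4 groups and so reflect the group differences. For Pdgfra they were the gene that the files name mmu-mir-1900 (ENSMUSG00000097432), Ccl8, Mfap3 and Edil3 (each r = 0.982) and Prpsap1 (0.980). For Mfap5 they were Hsd17b12 and Galk2 (0.995 each) and Aspm (0.994), and for Tcf7l2 Tmem104 (0.987), Arid1a (0.977) and Med15 (0.976). Dpp4 was the most alike to Cd34 (0.956), before Mrps12 (0.948) and Pef1 (0.947), and it was the second to Pi16 (0.901), after Plekhj1 (0.923) and before Aldh1a3 (0.895). Dpp4 was at 10.0 ± 1.63 CPM (SD, n = 3) in control and 5.86 ± 0.559 CPM in severe muscle. Clec3b had Igfbp5 (0.936), Golga3 (0.922) and Uhrf1bp1 (0.902), Dpt had Ccdc57 (0.921), Surf4 (0.920) and Lgi2 (0.917), and Ly6a had Slc22a23 (0.930), Prdx6 (0.919) and Nqo1 (0.911). Osr1 had 6530402F18Rik (0.761), Dpm3 (0.730) and Olfml2a (0.689), the lowest values of the 9.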

How the data were processed

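Poly(A) RNA of gastrocnemius muscle was sequenced as single 50-base reads. The submitters' processing notes name mm10, RSEM 1.2.4, Bowtie and TopHat2 2.0.8b. The authors deposited expected counts per gene, which are not scaled between libraries, and TPM, which are scaled by length and to the same total in each library. Between 31.8% and 36.2% of the expected counts were not whole, since RSEM divides shared reads.

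Counts were rounded and tested with edgeR 4.0.16 in R 4.3.3 (filterByExpr, TMM, robust quasi-likelihood F-test, all 12 mice in 1 fit, Benjamini-Hochberg over 16679 genes). DESeq2 1.42.0, limma 3.58.1 on log2(TPM + 1) and the other alternatives are given in the closing section. Ratios to Pdgfra used count + 0.5 and exact permutation tests. The fit was tested first on simulated data in which 200 of 14644 genes were changed in the moderate group. With TMM factors 134 of the 200 were recovered, with 13 false calls. These simulated libraries held no shift in composition like that of the severe libraries, so they did not test the scaling between libraries. Positions and transcripts came from GENCODE M21, which held 35982 of the 37748 identifiers, and figures from matplotlib 3.10.9. The 16 gene lists, members included, were chosen with earlier results of these data known. Named list genes were open to naming if called in the moderate or severe comparison, and the highest and lowest of each list in the severe comparison were required. Total counts per mouse set the precision, and intervals from them would cover counting error only.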

Additional observations from a re-analysis of the deposited data

How the results depend on the processing

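The counts of members called were the same with median-of-ratios factors, DESeq2, only the 2 groups compared, and TMM factors computed without the 20 largest genes, an alternative added after the data were seen, as was edgeR with Pdgfra as the scale. With library size alone, 9 members were higher in the moderate model, 8 higher and 0 lower in the severe model, and 3 higher and 1 lower between severe and moderate. Of all tested genes, 52.5% were then higher in the moderate model, 75.4% higher and 6.42% lower in the severe model, and 57.8% higher and 4.93% lower between the models. For severe against control Cd34 then reversed to 0.69, Osr1 to 1.23, Pi16 to 0.70 and Clec3b to 0.38, and for severe against moderate Ly6a to 0.36, Osr1 to 0.37 and Dpt to 0.39. From limma on log2(TPM + 1) the counts were 7, then 8 and 0, then 3 and 0 (31.5%, then 64.1% and 5.92%, then 48.2% and 3.77% of all genes), and the same genes reversed to 0.59, 0.65, 0.56 and 0.27, and to 0.40, 0.24 and 0.41. Both alternatives lack a factor between libraries, and their medians over all genes were above 0 by 1.39 and 0.79 in the severe comparison. With at least 10 counts in every sample, 1 member was lower in the severe model and 2 were higher between the models. With FLExD/+ as the reference, 5 were higher in the moderate model. At a log2 fold change of at least 1, 1 was higher in the moderate model, 1 higher and 0 lower in the severe model, and 0 higher and 1 lower between the models, and with no fold threshold 2 were higher between the models. Osr1 in the severe comparison was 0.025 without the filter, 0.039 with at least 10 counts, 0.021 against FLExD/+ and between -0.26 and 0.10 with a mouse left out. Leaving out a mouse gave 2 to 4 members higher in the moderate model, 2 to 3 lower in the severe model and 1 to 2 higher between the models. The number of ratios to Pdgfra without overlap moved from 1 to between 1 and 5 in the moderate comparison when a mouse was left out, with 5 without moderate mouse 1308. From TPM + 0.1 it was 1 for FLExD/+ and 2 for moderate against control. The Tcf7l2 ratio reversed to -0.63 (severe against control) and -0.12 (severe against moderate) with TPM, whose lengths changed for this gene, and lay between -0.082 and 0.26 with a mouse left out. Of the remaining values of single members, ratios included, 543 were the same, 36 became stronger and 17 weaker under an alternative. A fold change was the same if its sign held and it passed or failed the 2 thresholds as before, whatever its size. It was stronger if it newly passed and weaker if it no longer passed. A ratio was the same if its sign held, and stronger only if edgeR with Pdgfra as the scale gave an adjusted p under 0.05. No paired analysis was possible because no mouse number is shared between groups. Where no construction of the alternative is named, the cause was not tested. Osr1, Clec3b and Tcf7l2 have the fewest counts, which limits their precision.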
